A study of Mus musculus with 5 samples.

Results

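The 10 alpha and beta tubulin genes Tuba1a, Tuba1b, Tuba1c, Tuba4a, Tubb2a, Tubb2b, Tubb3, Tubb4a, Tubb4b and Tubb5 were followed in whole mouse cerebella at postnatal day 14. They were chosen by symbol, out of 55421 genes in the deposited count table, and all 10 were found and passed the filter on low counts. Bulk RNA-seq had been carried out on 3 Yy1 cKO libraries, of genotype Pcp2 Cre/+; Yy1 fx/fx, and 2 control libraries from littermates, of genotype Pcp2 Cre/+; Yy1 fx/+. YY1 is a zinc finger transcription factor. Pcp2-Cre acts mainly in Purkinje cells, whose axons carry the output of the cerebellar cortex. The deletion is thus aimed at few of the cells in the tissue, and the controls carried Cre and 1 floxed copy themselves. The labels give mixed sex and no strain.

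Microtubules are polymers of dimers, each of 1 alpha and 1 beta tubulin, and each kind is encoded by several genes called isotypes. The isotypes share most of their sequence and differ mainly in the last stretch of the protein, an acidic tail that lies on the outside of the microtubule and carries most of its modifications. In the brain Tuba1a, Tubb2b, Tubb3 and Tubb5 are known from neurons that are being born, migrating or growing axons, whereas Tubb4a and Tuba4a are known from mature neurons, and Tubb4a also from myelinating oligodendrocytes. Mutations of TUBA1A, TUBB2B, TUBB3 and TUBB in humans cause brain malformations, and those of TUBB4A a disease of myelin, basal ganglia and cerebellum.

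The end of the coding sequence is shown for the beta genes because it tells most of the isotypes apart. The last 60 coding bases of each, stop codon included, are given in the sense of the transcript from the GENCODE M21 transcripts (GRCm38), with capitals where the base differed from Tubb2a in an alignment of the whole coding sequences.
Tubb2a: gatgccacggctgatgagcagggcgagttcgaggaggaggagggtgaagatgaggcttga
Tubb2b: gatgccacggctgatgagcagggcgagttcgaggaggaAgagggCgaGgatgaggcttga
Tubb3: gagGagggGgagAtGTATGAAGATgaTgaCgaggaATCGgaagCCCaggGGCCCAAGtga
Tubb4a: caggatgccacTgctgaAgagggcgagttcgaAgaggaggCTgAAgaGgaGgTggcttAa
Tubb4b: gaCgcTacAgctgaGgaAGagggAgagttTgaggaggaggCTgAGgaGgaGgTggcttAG
Tubb5: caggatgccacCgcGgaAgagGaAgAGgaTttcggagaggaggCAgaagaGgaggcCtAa
Tubb2a and Tubb2b differed by 3 of these bases, which leave the encoded residues the same, so their encoded tails do not differ here. Tubb3 differed from Tubb2a by 30. Among the alpha genes, Tuba1a, Tuba1b and Tuba1c encode the final tyrosine that can be cut off and put back on alpha tubulin, and Tuba4a does not.

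The opposite end of the coding sequence is nearly invariant. When free tubulin dimers are in excess, the factor TTC5 binds the first residues of new tubulin chains and starts the decay of their mRNA, with SCAPER as its partner, so the start codon is shown with the following 3 codons in capitals.
Tuba1a: atgCGTGAGTGC
Tuba4a: atgCGCGAGTGC
Tubb2a: atgCGCGAGATC
Tubb2b: atgCGAGAGATC
Tubb3: atgAGGGAGATC
Tubb4a: atgCGGGAAATC
Tubb5: atgAGGGAAATC
Tuba1b and Tuba1c had the bases of Tuba1a, and Tubb4b those of Tubb3. The other differences among the alpha or among the beta genes were in bases that leave the encoded residues the same.

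Near-identical copies limit the values of single genes. Over the coding sequence Tuba1a was 98.3% identical to Tuba1b and 97.1% to Tuba1c, and Tubb2a was 96.5% identical to Tubb2b. The other pairs of alpha genes were 84.7% to 97.9% identical, and the other pairs of beta genes 81.5% to 84.6%. Of all windows of 75 bases in the transcript, 70.5% in Tuba1a, 78.3% in Tuba1b, 56.7% in Tuba1c, 43.2% in Tubb2a and 32.2% in Tubb2b also occurred in another annotated gene. For Tubb3, Tubb4a and Tubb5 the share was 0% at 75 and at 150 bases. Tuba4a shared 47.2% of its windows with Stk16, a kinase gene that overlaps it on the opposite strand, and Tubb4b shared 33.7% with its pseudogene Tubb4b-ps1. How the counting treated strand and reads with several matches is not given in the sources used here.

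**Figure D1:**
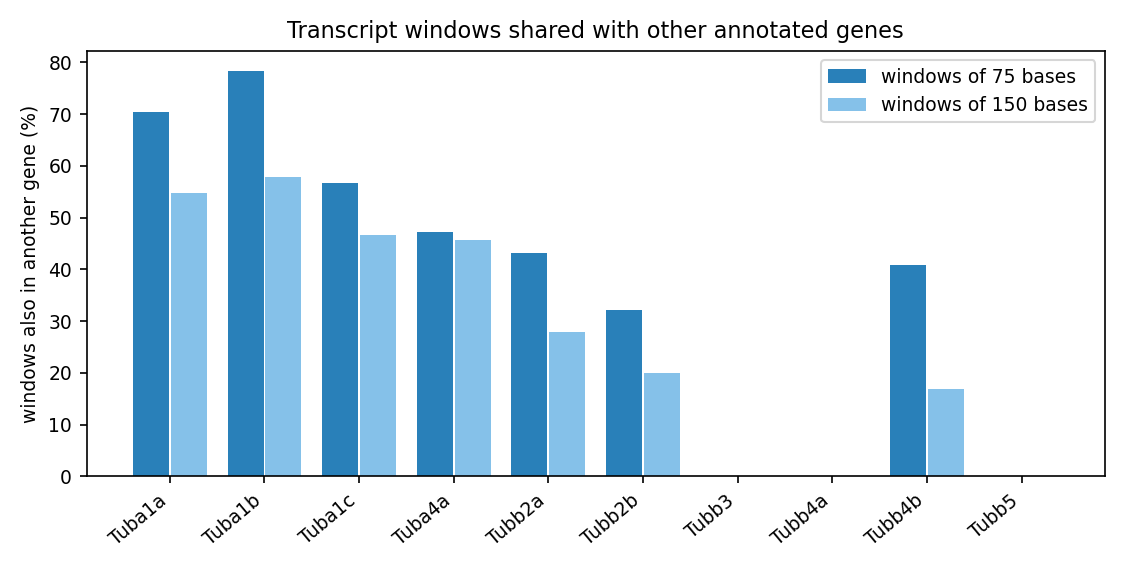
Share of windows of 75 bases (dark bars) and 150 bases (light bars) in the transcript of each tubulin gene that also occurred in an annotated transcript of another gene, on either strand, in percent. Tubb3, Tubb4a and Tubb5 stand at 0, and Tuba1b is highest with 78.3% at 75 bases.

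Total counts were 20305705, 18872728 and 18895209 in the Yy1 cKO libraries and 18007663 and 17424860 in the controls. Yy1 itself had 73.4, 81.7 and 75.8 CPM in the Yy1 cKO libraries, against 74.6 and 73.7 CPM in the controls. In whole tissue this checks the labels little. Xist, which marks female samples, was counted 34304, 29862 and 6 times in Yy1 cKO and 12 and 44119 in the controls, so both sexes were present in both groups. Ddx3y, a Y-linked gene, had 0, 0 and 1471 counts in Yy1 cKO and 1175 and 0 in the controls. The controls thus came from different animals, and so did Yy1 cKO 3 and the other Yy1 cKO libraries. For Yy1 cKO 1 and 2 the labels do not name separate animals, and the spread between that pair may be technical. Yy1 cKO 3 stood apart from the other libraries on the second principal component of log2 CPM, which held 18.5% of the variance. All 10 tubulin genes had their lowest value among the Yy1 cKO libraries in Yy1 cKO 3, while 38.4% of all 20388 genes tested did.

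Most of the tubulin genes were lower in the Yy1 cKO cerebella. Tuba1a, Tuba1c, Tubb2a, Tubb2b, Tubb3 and Tubb5 fell, Tubb4a rose, and Tuba1b, Tuba4a and Tubb4b did not pass the test. These 6 lower and 1 higher of 10 were called by edgeR's quasi-likelihood test with Benjamini-Hochberg adjustment over all genes tested and an adjusted p under 0.05. Over all genes 12.6% were called lower and 10.7% higher, 23.4% together. With scaling by library total alone the calls over all genes were 3369 lower and 1432 higher, against 2577 and 2185 with TMM, and those of the tubulin genes were again 6 and 1. Without Yy1 cKO 3 the tubulin calls were 6 lower and 2 higher, without control 1 they were 4 and 0, and without control 2 they were 5 and 0. Without Yy1 cKO 1 they were 5 and 0, and without Yy1 cKO 2 they were 7 and 0. Over all genes the calls were 1877 lower and 1491 higher of 20131 tested without Yy1 cKO 1. The same calls were 2011 and 1638 of 20126 without Yy1 cKO 2, and 3127 and 2990 of 20032 without Yy1 cKO 3. The groups did not overlap in 7 genes that were lower and 1 that was higher, against 27% and 25.2% of all genes. The median log2 fold change of the 10 was -0.71, against -0.00086 for all genes tested. Levels below are counts scaled to the library total with TMM factors (CPM), which compare libraries and not genes, and fold changes are Yy1 cKO over control with their standard error (SE).

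**Figure D2:**
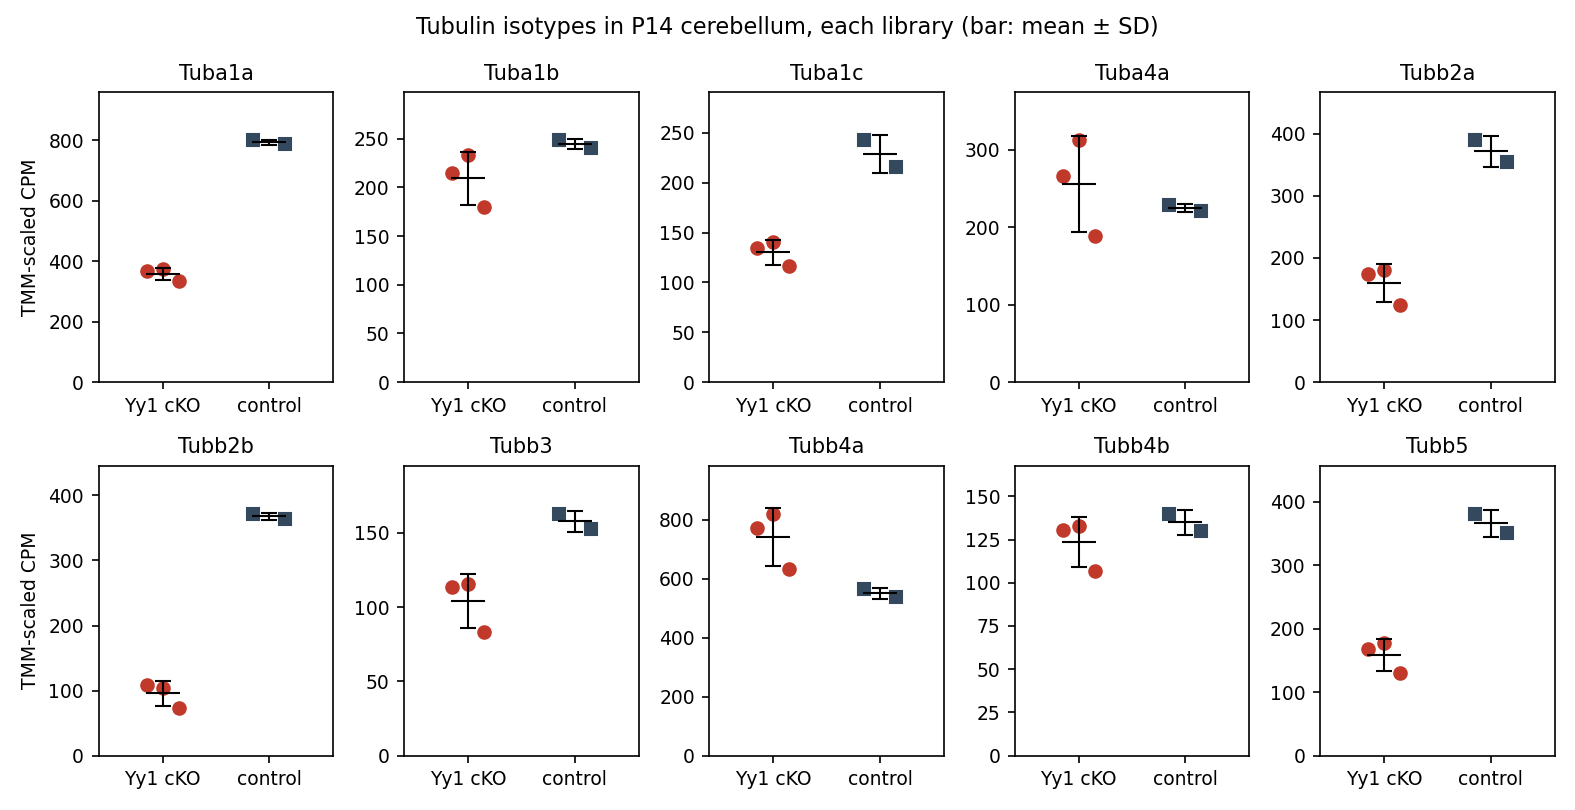
TMM-scaled CPM (vertical axis, from 0) of each tubulin gene in the 3 Yy1 cKO libraries (red circles, left) and the 2 control libraries (dark squares, right), with black bars for mean ± SD. The Yy1 cKO libraries lie below both controls for Tuba1a, Tuba1b, Tuba1c, Tubb2a, Tubb2b, Tubb3 and Tubb5 and above both for Tubb4a.

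Among the alpha genes, Tuba1a lies on chromosome 15 at 98949837 to 98953703 on the minus strand (ENSMUSG00000072235.6, GRCm38) and encodes the main alpha tubulin of developing neurons. It had 366, 373 and 335 CPM in Yy1 cKO libraries 1, 2 and 3, against 799 and 788 CPM in the controls. Every Yy1 cKO library was thus far below both controls, and the spread within each group was small. The log2 fold change was -1.15 ± 0.066 (SE, edgeR adjusted p = 5.1e-06), and under the 15 alternatives tried it lay between -1.23 and -1.10.

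Tuba1b (98931425 to 98934565 on chromosome 15, minus strand) and Tuba1c (99029891 to 99038110, plus strand) are widely expressed neighbours of Tuba1a. Tuba1c had 135, 140 and 116 CPM in the Yy1 cKO libraries, against 243 and 215 CPM in the controls. It fell by 0.81 ± 0.087 on the log2 scale (SE, edgeR adjusted p = 3.2e-04). Tuba1b had 215, 234 and 180 CPM in the Yy1 cKO libraries, against 248 and 241 CPM in the controls. The groups did not overlap for Tuba1b, but the difference of -0.22 ± 0.10 did not pass the test (edgeR adjusted p = 0.16, 95% interval -0.46 to 0.01). Without Yy1 cKO 2 it was -0.31 and passed (edgeR adjusted p = 0.049). With no filter on low counts it also passed (edgeR adjusted p = 0.0068). The value was then nearly unchanged at -0.22, and the pass rests on a smaller SE of 0.065.

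Annotated copies of the Tuba1 genes held many reads. The 8 further annotated genes that share at least 10% of the 75-base windows of Tuba1a, mostly processed pseudogenes, held 5723, 5435 and 4507 counts in the Yy1 cKO libraries and 11209 and 9138 in the controls. That was 27.7% to 31.8% of the counts of the 3 Tuba1 genes and these copies together. Of the 7 copies tested 6 were called lower and 0 higher, against 12.6% and 10.7% of all genes. Their log2 fold changes ran from -1.14 to -0.66. The copies were chosen for sequence shared with Tuba1a, so these calls need not be independent. Gm3226, a processed pseudogene named after its values were seen, was counted 1498, 1386 and 1215 times in Yy1 cKO, against 3235 and 2591 in the controls. Its log2 fold change of -1.14 ± 0.094 (SE) was the lowest of the copies. Gm17383, the copy with the most counts, fell nearly as much (-1.13 ± 0.073). It was counted 2152, 1984 and 1782 times in Yy1 cKO, against 4476 and 3880 in the controls. Others fell less, such as Gm5620 (-0.86 ± 0.11) and Gm3756 (-0.66 ± 0.14), and Gm14150 (-0.66 ± 0.27) did not pass (edgeR adjusted p = 0.17). Whether reads at these copies came from Tuba1a was not tested. With the counts of Tuba1a, Tuba1b and Tuba1c summed, the Yy1 cKO libraries had 716, 747 and 630 CPM, against 1290 and 1244 CPM in the controls. The sum fell by 0.86 ± 0.080 (SE, edgeR adjusted p = 7.3e-05), and with the copies added by 0.91 ± 0.086.

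Tuba4a, on chromosome 1 at 75214228 to 75219865 (minus strand), is the alpha isotype without an encoded final tyrosine. It had 267, 312 and 189 CPM in Yy1 cKO libraries 1, 2 and 3, against 229 and 222 CPM in the controls. Yy1 cKO 1 and 2 lay above both controls and Yy1 cKO 3 below both. The log2 fold change was 0.19 ± 0.24 (edgeR adjusted p = 0.65, 95% interval -0.47 to 0.84), so these libraries leave room for a change in either direction. Without Yy1 cKO 3 it was 0.36 ± 0.068 and passed (edgeR adjusted p = 0.0022). Its antisense partner Stk16 reached 448, 469 and 462 counts in Yy1 cKO and 491 and 517 in the controls, far fewer than the 3523 to 5705 and 3973 to 4258 counts of Tuba4a in these groups.

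Among the beta genes, Tubb2b showed the largest change of the 10. It lies on chromosome 13 at 34126748 to 34130466 (minus strand) and is known from migrating neurons. It had 109, 105 and 73.6 CPM in the Yy1 cKO libraries, against 372 and 364 CPM in the controls. The groups were widely apart, and Tubb2b fell by 1.94 ± 0.18 on the log2 scale (SE, edgeR adjusted p = 0.0024), which is 3.84-fold. Under the alternatives the value lay between -2.04 and -1.78.

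Tubb2a, its neighbour at 34074274 to 34078007, had 174, 181 and 124 CPM in the Yy1 cKO libraries, against 389 and 354 CPM in the controls. It fell by 1.22 ± 0.18 (SE, edgeR adjusted p = 0.010). Without control 1 its value of -1.15 had an edgeR adjusted p of 0.053. With both genes summed the fall was 1.53 ± 0.17 (SE, edgeR adjusted p = 0.0030), so how reads were divided between these copies does not bear on the direction of the sum. Tubb2a-ps2, a pseudogene that shares 9.96% of the windows of Tubb2a, was counted 22, 12 and 12 times in Yy1 cKO, against 82 and 76 in the controls.

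Tubb5, the mouse counterpart of human TUBB and a beta tubulin of dividing and young cells, lies on chromosome 17 at 35833921 to 35838306 (minus strand). It had 168, 178 and 131 CPM in the Yy1 cKO libraries, against 381 and 351 CPM in the controls. No window of it occurs in another gene, and it fell by 1.20 ± 0.13 (SE, edgeR adjusted p = 0.0015), close to Tubb2a and Tuba1a. Tubb3, at 123411424 to 123422015 on chromosome 8 (plus strand), is the isotype used as a marker of neurons. It had 114, 115 and 83.3 CPM in the Yy1 cKO libraries, against 163 and 153 CPM in the controls. Its fall of 0.60 ± 0.15 was smaller and near the threshold (SE, edgeR adjusted p = 0.039). Without control 1, control 2 or Yy1 cKO 1 it did not pass (edgeR adjusted p = 0.16, 0.12 and 0.051).

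Tubb4a was the member that rose. It lies on chromosome 17 at 57080066 to 57087782 (minus strand). It had 772, 820 and 631 CPM in Yy1 cKO libraries 1, 2 and 3, against 564 and 537 CPM in the controls. All 3 Yy1 cKO libraries lay above both controls, with Yy1 cKO 3 nearest to them. The log2 fold change was 0.43 ± 0.11 (SE, edgeR adjusted p = 0.021, 95% interval 0.19 to 0.67). It stayed positive in each of 5 fits that left out 1 library, at 0.35 to 0.53, but passed in only 1 of them, without Yy1 cKO 3. Without control 1, control 2, Yy1 cKO 1 or Yy1 cKO 2 the edgeR adjusted p was 0.10, 0.15, 0.069 and 0.053.

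Tubb4b, a widely expressed isotype that is also abundant in cilia, lies on chromosome 2 at 25222160 to 25224702 (minus strand). It had 131, 133 and 107 CPM in the Yy1 cKO libraries, against 140 and 130 CPM in the controls. The groups overlapped, and the difference of -0.13 ± 0.095 did not pass (edgeR adjusted p = 0.39, 95% interval -0.35 to 0.09). Its interval lay above those of Tubb2a, Tubb2b and Tubb5, whose upper bounds were -0.75, -1.47 and -0.88.

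**Figure D3:**
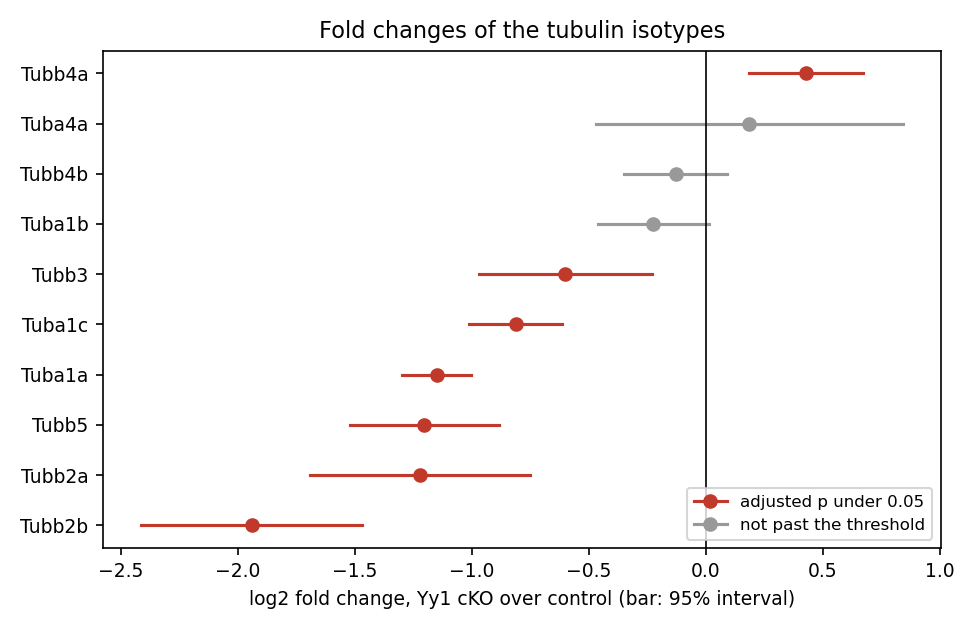
Log2 fold change of each tubulin gene, Yy1 cKO over control (horizontal axis), with its 95% interval. Red marks an adjusted p under 0.05 and grey the 3 genes that did not pass. Tubb2b is lowest at -1.94 and Tubb4a highest at 0.43.

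The make-up of the tubulin mRNA pool stood apart between the groups. Counts were divided by the annotated exon length of each gene (per kb) and given as shares of the alpha or of the beta genes. With 3 libraries against 2 the exact permutation test cannot give a one-sided p below 0.1, so the shares are described with no test. Tubb4a made up 51.3%, 52.2% and 53.7% of the beta counts in the Yy1 cKO libraries, against 27.4% and 27.7% in the controls. Tubb2b made up 7.03%, 6.48% and 6.09% in the Yy1 cKO libraries, against 17.5% and 18.3% in the controls. Tubb2a averaged 15.5% ± 0.80 in Yy1 cKO and 25.7% ± 0.58 in controls, and Tubb5 averaged 7.51% ± 0.076 in Yy1 cKO and 12.3% ± 0.16 in controls (SD, n = 3 and 2). Yy1 cKO 3, which had the lowest levels, was within 3 percentage points of the other Yy1 cKO libraries for every beta gene. Tubb3 averaged 8.74% ± 0.28 in Yy1 cKO and 9.41% ± 0.0020 in controls, and Tubb4b 9.32% ± 0.34 in Yy1 cKO and 7.20% ± 0.054 in controls. None of the 6 beta shares overlapped between groups. Those of Tubb4a and Tubb4b were higher in Yy1 cKO and the other 4 lower, with the smallest difference, -0.67 percentage points, for Tubb3. Shares of a pool add up to a fixed total, so they are not independent, and a fall of some genes raises the shares of others. In level Tubb4a rose 1.35-fold and Tubb4b overlapped between groups. Of all genes 52.2% did not overlap in level.

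Among the alpha genes Tuba1a made up 45.3%, 43.4% and 48.4% of the counts per kb in the Yy1 cKO libraries, against 59.6% and 60.7% in the controls. Tuba4a made up 16.1%, 17.7% and 13.3% in the Yy1 cKO libraries, against 8.31% and 8.32% in the controls. The groups did not overlap, although the level of Tuba4a itself did. Tuba1b averaged 25.5% ± 0.56 in Yy1 cKO and 17.8% ± 0.032 in controls, and Tuba1c 13.1% ± 0.21 in Yy1 cKO and 13.7% ± 0.83 in controls. Shares among Tuba1a, Tuba1b and Tuba1c depend on how reads of near-identical stretches were counted. The shares leave out the reads at the copies of Tuba1a. They also depend on the lengths used, which over all annotated exons exceed that of the transcript used for the sequences most for Tuba4a (3701 against 2840 bp), Tubb4b (2088 against 1598 bp) and Tubb5 (3327 against 2649 bp).

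**Figure D4:**
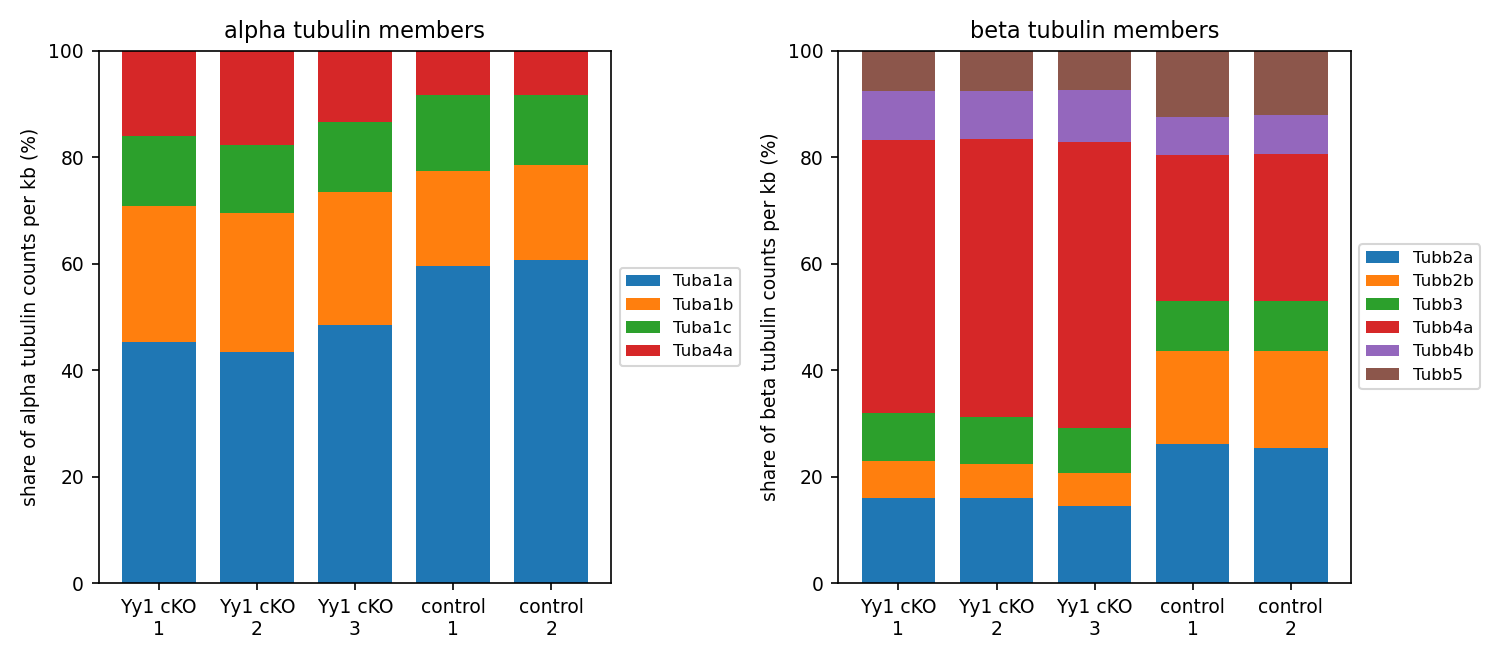
Share of each gene in the summed counts per kb of the 4 alpha genes (left panel) and the 6 beta genes (right panel), in percent, with 1 bar per library, the 3 Yy1 cKO libraries left of the 2 controls. Tubb4a fills 51.3% to 53.7% of the beta bars in Yy1 cKO and 27.4% to 27.7% in controls.

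The genes also stood in another order in each group. Per kb of exon, Tubb4a was highest in Yy1 cKO with 333 ± 44.0 CPM per kb, followed by Tuba1a with 199 ± 11.4, while in controls Tuba1a led with 440 ± 4.5, followed by Tubb4a with 247 ± 8.7 (SD, n = 3 and 2). The lead of Tubb4a in Yy1 cKO depends on the reads at the copies of Tuba1a, whose origin was not tested. Some copies share more 75-base windows with Tuba1b than with Tuba1a, such as Gm14150 with 39.8% against 18.3%. With the counts of all 8 copies added, the most they can give, Tuba1a had 363, 372 and 320 CPM per kb in the Yy1 cKO libraries. That was above the 347, 368 and 283 of Tubb4a in the same libraries. Tuba1a then had 777 and 720 in the controls. Adding only some of the copies was not tried. Tubb2b was the lowest of the 10 in Yy1 cKO, with 41.8 ± 8.4 CPM per kb, and stood at 160 ± 2.4 in controls, where 3 genes were above it. In Yy1 cKO the order below Tuba1a ran Tuba1b (112 ± 14.6), Tubb2a, Tuba4a, Tubb4b, Tuba1c, Tubb3, Tubb5 and Tubb2b. Neighbours among these 8 genes overlapped in range. Library by library, neighbours kept this order except Tuba4a with Tubb4b and Tuba1c with Tubb3. In controls the neighbours that overlapped in range were Tubb4a with Tubb2a (231 ± 15.4) and Tubb5 (110 ± 6.3) with Tuba1c (100.1 ± 8.4). The first of each pair was the higher in each control library.

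Summed over genes, both pools fell. The 4 alpha genes had 983, 1059 and 819 CPM in the Yy1 cKO libraries, against 1519 and 1466 CPM in the controls (log2 fold change -0.65 ± 0.10, SE, edgeR adjusted p = 0.0021). The 6 beta genes had 1468, 1532 and 1149 CPM in the Yy1 cKO libraries, against 2009 and 1889 CPM in the controls (-0.49 ± 0.12, SE, edgeR adjusted p = 0.019). The fall of the beta sum did not pass without control 1 or control 2 (edgeR adjusted p = 0.13 and 0.082). The ratio of beta to alpha counts was 1.49, 1.45 and 1.40 in the Yy1 cKO libraries, against 1.32 and 1.29 in the controls. With the copies of Tuba1a added to the alpha counts it was 1.15, 1.13 and 1.08 in the Yy1 cKO libraries, against 0.947 and 0.956 in the controls, so the groups stood apart either way.

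Markers of several cell types moved beside the tubulin genes, and their part in the results was not tested. Their counts stand beside 10.7% of all genes called higher and 12.6% called lower. In bulk tissue fewer cells of a type and less RNA per cell cannot be told apart. Of 12 young neuron markers other than tubulins 10 fell and 0 rose, and their summed level was 1424 to 1567 CPM in Yy1 cKO and 2573 to 2621 CPM in controls. Dcx, a microtubule-binding protein of migrating neurons, fell to 20.3 ± 0.46 CPM in Yy1 cKO, against 299 ± 21.3 CPM in controls. Stmn1, which binds free tubulin dimers, fell to 35.5 ± 0.18 CPM in Yy1 cKO, against 86.0 ± 6.4 CPM in controls, and Stmn2, of the same family, fell by 0.61 ± 0.087 on the log2 scale. Neurod1, the most abundant of the list, stood at -0.10 ± 0.063 and did not pass. Of 18 markers of dividing cells 16 fell and 0 rose, with summed levels of 46.1 to 48.9 CPM in Yy1 cKO and 151 to 180 CPM in controls. Of 10 mature granule neuron markers 8 rose and 1 fell (4106 to 4577 CPM in Yy1 cKO and 3106 to 3224 CPM in controls). Of 12 Purkinje cell markers 3 rose and 0 fell (6472 to 7229 CPM in Yy1 cKO and 5557 to 5714 CPM in controls), and of 9 interneuron markers 6 rose and 0 fell.

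Beside Tubb4a, which myelinating cells use, 3 of 10 mature oligodendrocyte markers rose and 1 fell. The same 10.7% higher and 12.6% lower of all genes apply to the counts of these short lists. Mal (0.68 ± 0.088), Mobp (0.32 ± 0.084) and Ermn (0.33 ± 0.083) rose, and Cnp fell by 0.19 ± 0.061. Their summed level was 6889 to 7666 CPM in Yy1 cKO and 7058 to 7123 CPM in controls, with overlap, and Mbp, the most abundant, stood at 2893 ± 159 CPM in Yy1 cKO and 3024 ± 7.4 CPM in controls. Of 9 markers of oligodendrocyte precursors 6 fell and 0 rose. Of 9 tested markers of ciliated and choroid plexus cells 3 rose and 1 fell, with a sum of 56.9 to 62.5 CPM in Yy1 cKO and 47.8 to 55.3 CPM in controls. Most of that sum was Dnah11, with 39.6, 34.5 and 41.0 CPM in Yy1 cKO, against 28.5 and 20.1 CPM in controls. The sum thus mainly follows this gene. Otx2, the marker that fell, had 8.7 CPM in Yy1 cKO and 15.6 CPM in controls on average. Of 9 astrocyte and Bergmann glia markers 3 rose and 2 fell, of 8 endothelial and mural markers 1 rose and 5 fell, and of 6 tested microglia markers 0 changed. Of 6 tested erythroid and platelet markers 4 rose, with sums of 595 to 962 CPM in Yy1 cKO and 263 to 303 CPM in controls. None of these lists had a marker at 0 in every library.

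The remaining alpha and beta tubulins were rare. Tuba8 had 34.3, 33.1 and 18.7 CPM in the Yy1 cKO libraries, against 33.5 and 27.7 CPM in the controls, and its log2 fold change was -0.09 ± 0.30 (edgeR adjusted p = 0.87). For Tubb6 the counts were 37, 31 and 38 in Yy1 cKO, against 50 and 46 in the controls (-0.49 ± 0.23, edgeR adjusted p = 0.16). Tuba3a and Tuba3b had no count, Tubal3 had 2 and 1 counts in the controls and 0 in Yy1 cKO, and Tubb1, the platelet isotype, had 1 count in Yy1 cKO 2.

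Genes that make, fold and modify tubulin were read as lists, beside the 10.7% of all genes called higher and 12.6% called lower. In the list of gamma, delta and epsilon tubulins and the gamma-tubulin ring complex, which starts new microtubules, 1 of 13 rose and 1 fell. Tubgcp6 rose to 111 ± 12.8 CPM in Yy1 cKO, against 77.6 ± 1.7 CPM in controls, and Mzt2 fell by 0.49 ± 0.13. Of 21 folding and assembly factors 2 rose and 1 fell, with a median log2 fold change of -0.12. Cct2, a subunit of the chaperonin that folds tubulin, fell to 75.9 ± 1.8 CPM in Yy1 cKO, against 94.9 ± 0.98 CPM in controls, and Arl2, a small GTPase of dimer assembly, rose by 0.43 ± 0.11. The autoregulation genes Ttc5 (-0.16 ± 0.077, edgeR adjusted p = 0.17) and Scaper (0.06 ± 0.058, edgeR adjusted p = 0.54) did not pass.

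Among the enzymes that act on the final tyrosine of alpha tubulin or on its acetylation, several were lower. Of 7 tested 4 fell and 0 rose, and the median log2 fold change was -0.56. Vash2, a carboxypeptidase that removes the tyrosine, was counted 58, 47 and 48 times in Yy1 cKO, against 394 and 421 in the controls, and fell by 3.05 ± 0.13 (SE, edgeR adjusted p = 8.9e-07). Its relative Vash1 fell to 59.4 ± 5.2 CPM in Yy1 cKO, against 121 ± 0.67 CPM in controls. Their partner Svbp had a log2 fold change of -0.56 ± 0.19 that missed the threshold (edgeR adjusted p = 0.055). Ttl, the ligase that restores the tyrosine, had -0.20 ± 0.13 (edgeR adjusted p = 0.32). Atat1, which acetylates alpha tubulin inside the microtubule, fell by 0.61 ± 0.080, and of the enzymes that remove this mark Sirt2 fell by 0.44 ± 0.085 while Hdac6 stood at -0.02 ± 0.069 (edgeR adjusted p = 0.90).

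Of the enzymes and partners that add chains of glutamate or glycine to the acidic tails 4 of 13 tested rose and 1 fell, with a median log2 fold change of 0.12. Ttll7, a polyglutamylase of neurons that prefers beta tubulin, rose to 241 ± 3.5 CPM in Yy1 cKO, against 160 ± 5.0 CPM in controls (log2 fold change 0.59 ± 0.054, SE, edgeR adjusted p = 6.9e-05). Ttll3, a glycylase, rose by 0.58 ± 0.092, Ttll11 by 0.41 ± 0.12 and Ttll5 by 0.27 ± 0.073. Ttll1, the catalytic subunit of the polyglutamylase complex, fell by 0.52 ± 0.10, and its partners Tpgs1, Tpgs2, Lrrc49 and Nicn1 did not pass. Among the enzymes that shorten these chains 0 of 5 tested rose and 1 fell, Agbl5 (-0.68 ± 0.13, SE, edgeR adjusted p = 0.0042). Agtpbp1, whose loss makes Purkinje cells degenerate in the mouse, had 325 ± 13.7 CPM in Yy1 cKO and 300.2 ± 8.1 CPM in controls (0.11 ± 0.061, edgeR adjusted p = 0.22).

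**Figure D5:**
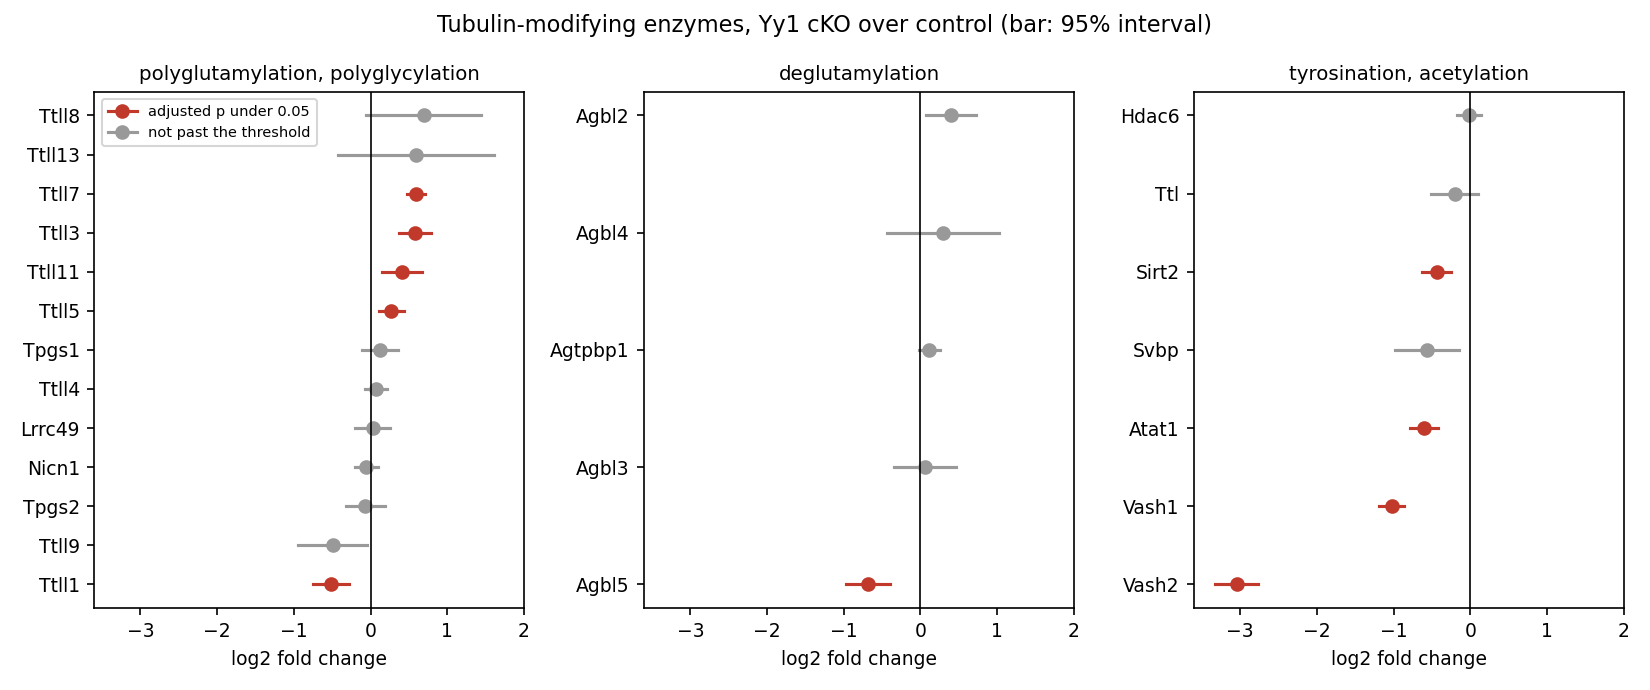
Log2 fold change, Yy1 cKO over control (horizontal axis), with 95% intervals, of tested enzymes of polyglutamylation and polyglycylation (left panel), deglutamylation (middle) and tyrosination and acetylation (right). Red marks an adjusted p under 0.05, with Vash2 lowest at -3.05 and Ttll7 at 0.59.

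Likeness among profiles was measured as the root mean square distance between log2 CPM over the 5 libraries, each profile centred on its own mean. Among the 10 tubulin genes Tubb2a and Tubb5 were closest, at 0.045, followed by Tuba1b and Tubb4b at 0.060. Tubb4a and Tubb2b were the farthest apart, at 1.17. Of 10721 other genes with a mean of at least 10 CPM, those nearest to Tubb2b were Grm5 (0.087), a metabotropic glutamate receptor gene, and Hist1h3i (0.11), a histone H3 gene with near-identical copies. Nearest to Tubb2a were Nol4l (0.033) and Oprl1 (0.045), the nociceptin receptor gene. Oprl1 (0.020) and Slc29a1 (0.033), a nucleoside transporter gene, were nearest to Tubb5, and H3f3c (0.037) and Ddah2 (0.038) to Tuba1a. With 5 libraries in 2 groups these distances mostly restate the size of the group difference.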

How the data were processed

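Whole cerebella were profiled in 3 Yy1 cKO and 2 control libraries, with paired-end reads of 150 bp. STAR 2.7.1a, Trimmomatic 0.39, FastQC 0.11.8, DESeq2 1.26.0, featureCounts and the build GRCm38 are named in the submitters' processing notes. The deposited counts are whole numbers for 55421 genes. A normalized signal was deposited as well, equal to the count divided by a constant for each library (0.969 to 1.07). Symbols, lengths and sequences came from GENCODE M21, in which 54673 identifiers matched with their version, 567 without it and 181 not.

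The main test was edgeR 4.0.16's quasi-likelihood test (R 4.3.3) on the counts, with TMM scaling, filterByExpr and robust dispersion, over 20388 genes, tested on simulated data. Alternatives were RLE or library size scaling, no filter or a minimum of 1 CPM in 2 libraries, DESeq2 1.42.0, limma-voom and limma-trend (limma 3.58.1, on log2 of the normalized signal plus a pseudocount of 1), dispersion without the robust option, a replicate block, Xist as covariate, leaving out each library and, added after seeing the data, the copies of Tuba1a in the sums and in its level per kb. Coding sequences were aligned with Biopython 1.88. The ends of the alpha coding sequences are not reported here. Replicates differed beyond sampling noise, since the chi-square statistic per gene lay between 3.51 and 16.7 for libraries of the same group. Counting error is small at these depths, and the number of libraries limits precision.

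Earlier results of these data were known when the tubulin genes, the other gene lists and the naming rule were chosen. The rule takes all alpha and beta tubulins, up to 4 genes per list with the smallest adjusted p under 0.05 and a mean of at least 1 CPM, the most abundant gene of each list, Yy1, and the 2 nearest profiles of the 4 genes with the largest change. Stmn1, Stmn2, Ttll11, Tpgs1, Tpgs2, Lrrc49, Nicn1, Ttl, Svbp, Hdac6, Ttc5 and the pseudogenes fall outside it and were named after their values were seen. Xist, Ddx3y and Stk16 also fall outside the rule. Not every gene that the rule takes is named in the text.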

Additional observations from a re-analysis of the deposited data

How the results depend on the processing

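None of the 10 tubulin genes or 5 sums changed sign under the alternatives run. Of 150 values of single tubulin genes under 15 alternatives, 137 kept their side of the threshold, as did 45 of 52 values of the sums. With library size scaling 1432 genes were called higher. With no filter Tuba1b had -0.22 and passed through a smaller SE (0.065, against 0.10 in the main fit). The sum of Tubb4a and Tubb4b (0.34, edgeR adjusted p = 0.051) passed with RLE scaling (0.34), with no filter (0.34) and with DESeq2 (0.34). Without length scaling the differences in share, Yy1 cKO minus control in percentage points, were 5.56 for Tuba1b, -1.62 for Tuba1c, 11.5 for Tuba4a, -7.59 for Tubb2a, -12.0 for Tubb2b and -7.30 for Tubb5. Per kb the differences were, in the same order, 7.72, -0.60, 7.38, -10.2, -11.3 and -4.75. The 2 sets of shares differ only by the division by exon length. The cause of the other shifts was not tested.

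Deviations of same-numbered libraries from their group means correlated at 0.037 and 0.013. With 2 controls the control deviations are equal and opposite by construction, so this check cannot exclude pairing by litter or batch. With the replicate block 3486 genes and 2 tubulin genes were called higher, and Tuba1b (-0.13), Tuba4a (0.36) and the sum of Tubb4a and Tubb4b (0.44) passed. Replicate 3 exists only in Yy1 cKO, so the block takes Yy1 cKO 3 out of the comparison. Its values thus lie close to those without Yy1 cKO 3 (0.359 and 0.363 for Tuba4a), and the 2 are not independent alternatives.

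Leaving out 1 library at a time gave 887 to 2990 genes called higher and 1267 to 3127 lower, with 0 to 2 tubulin genes higher and 4 to 7 lower. Over all genes 920 were higher and 1267 lower without control 1, and 887 higher and 1300 lower without control 2. The ranges of log2 fold change were -0.31 to -0.13 for Tuba1b, 0.020 to 0.36 for Tuba4a, -1.32 to -1.07 for Tubb2a, -0.68 to -0.46 for Tubb3 and 0.35 to 0.53 for Tubb4a. They were 0.26 to 0.44 for the sum of Tubb4a and Tubb4b and -0.57 to -0.38 for the 6 beta genes. With 1 control left out, the lone control is assumed to vary like the Yy1 cKO libraries.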
